A study of Oryctolagus cuniculus with 16 samples.

Results

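The small leucine-rich proteoglycans are secreted proteins built from leucine-rich repeats, most of which carry sulfated sugar chains and lie along collagen fibrils. Dermatopontin is a small matrix protein that binds decorin and collagen. The 10 genes described here were taken by symbol from the deposited table of 13001 named genes: LUM, DCN, BGN, OGN, FMOD, PRELP, ASPN, OMD, PODN and DPT. All 10 were present, and all 10 were among the 10942 genes that passed the filter on low counts.

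Vaginal tissue of 16 juvenile rabbits (New Zealand White, all female, 17 to 19 weeks old) was sequenced in 4 groups. Controls were 6 rabbits with a native vagina (control 2, 9, 16, 24, 25 and 29), and 3 rabbits had sham surgery (sham 11, 12 and 14). In 3 rabbits an acellular graft without particles was inserted (acellular 6, 8 and 10), and in 4 a graft with tissue particles, called PLATE (PLATE 1, 5, 9 and 13), which the series title describes as autologous micrografting. Graft samples were taken 10 mm from the graft zone. For sham and control samples the labels give no distance, so that site and graft cannot be told apart in comparisons with them. The time after surgery and what the sham operation involved are not given in the sources used here. The labels name 1 animal per library, with the number 9 in both the control and the PLATE group. Whether that is 1 animal is not stated, and all 16 libraries were treated as independent.

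In connective tissue these proteins bind collagen during fibril assembly and set how far fibrils grow sideways and how they are spaced. Several also hold growth factors such as transforming growth factor beta in the matrix, and fragments released from the matrix can act on receptors of the innate immune system. The vaginal wall owes its support to a fibrillar collagen layer beneath the epithelium and around the smooth muscle, where fibroblasts are the main source of these proteins.

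Total counts ran from 20992063 to 30695000 a library, and counts on genes with a symbol from 15348880 to 23236339. Levels are CPM, the usual unit of counts scaled to the effective library size, and differences are log2 fold changes from 1 fit of all 16 libraries (edgeR). Of the listed markers in the table, all 7 of smooth muscle and all 5 of columnar epithelium had counts in every library. Of 7 listed squamous epithelium markers only KRT5 and TP63 were in the table, and they summed to 0.72 to 71.5 CPM. Several libraries stood apart from their groups. Control 2 had the highest summed smooth muscle markers (158209 CPM against 9376 to 84236 in the other 15) and the lowest columnar epithelium markers (13.2 CPM against at least 181.8). Its TMM factor for the effective library size was 0.592, against 0.917 to 1.15 in the other 15. That factor raises the CPM of every gene in control 2, those of smooth muscle included. How the factor and the smooth muscle excess are related was not tested. PLATE 1 had the highest neutrophil markers (6741 CPM against at most 552 in the other 15) and the highest B and plasma cell markers (36512 against at most 11002 CPM). Results on the members that rest on these 2 libraries are given with and without them.

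The 10 genes together took 0.469 to 1.94% of the named counts of a library. The share was 1.38, 1.92 and 1.94% in the sham libraries, 0.469 to 1.52% in control, 0.818 to 1.41% in acellular and 0.84 to 1.5% in PLATE. DCN alone took 0.241 to 1.17%. FMOD (as few as 22 counts in a library) and OMD (20 to 270 counts) were the most thinly covered, and each of the other 8 had at least 311 counts in every library. In bulk tissue, fewer cells that make a transcript and less of it per cell cannot be told apart.

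No member passed an adjusted p of 0.05 in any of the 7 comparisons made (edgeR quasi-likelihood test, Benjamini-Hochberg over all 10942 genes). The same was true of every other gene, so the background is 0% in each comparison. DESeq2 and limma voom also called 0 members. What follows therefore gives levels, differences with their intervals, and unadjusted p-values, each beside the share of all genes that went as far.

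**Figure D1:**
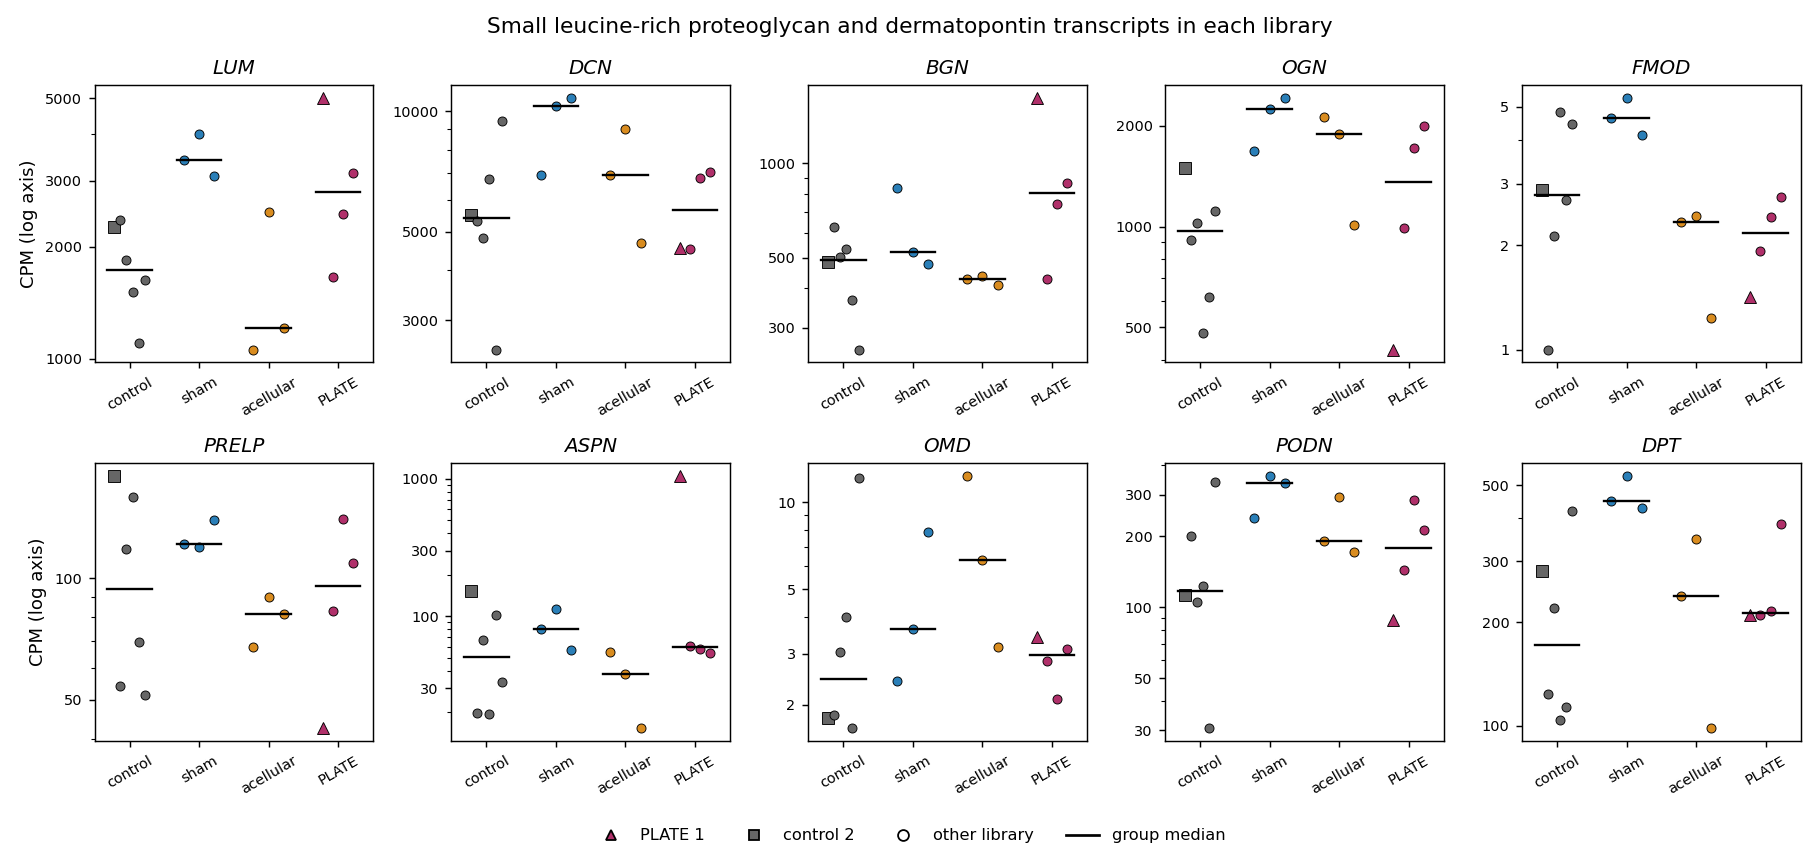
Level of each member in every library, in CPM on a log axis, by group, with the group median as a line. LUM, OGN and DPT are higher in all 3 sham libraries than in all 6 controls, and ASPN stands at 1047 CPM in PLATE 1 against 15.3 to 153 CPM in the other 15 libraries.

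Decorin (DCN), biglycan (BGN) and asporin (ASPN) form class I of the family. Decorin carries 1 chondroitin or dermatan sulfate chain, binds the surface of collagen fibrils and holds transforming growth factor beta. DCN stood at 5512, 5302, 4828, 6779, 2534 and 9428 CPM in control 2, 9, 16, 24, 25 and 29. In sham 11, 12 and 14 it was at 6919, 10302 and 10809 CPM, in acellular 6, 8 and 10 at 6944, 9016 and 4681 CPM, and in PLATE 1, 5, 9 and 13 at 4547, 4513, 6794 and 7050 CPM. The highest 2 values were sham libraries, but sham 11 lay below control 29, so that every group overlapped control. The sham mean was 9343 ± 2114 CPM (SD, n = 3) against 5730 ± 2282 CPM in control (n = 6), a log2 fold change of 0.71 with a 95% interval of -0.06 to 1.47. For PLATE against control the estimate was 0.00 with an interval of -0.71 to 0.71, which leaves room for a change of about that size in either direction.

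Biglycan carries a pair of such chains and, once released, is known as a ligand of Toll-like receptors. BGN stood at 485, 626, 502, 535, 366 and 255 CPM in the controls, in the order above, and at 832, 523 and 477 CPM in the sham libraries. The acellular libraries lay close together at 427, 438 and 408 CPM. PLATE libraries were spread from 427 CPM in PLATE 5 over 740.4 in PLATE 9 and 864 in PLATE 13 to 1619 CPM in PLATE 1. PLATE 9, 13 and 1 lay above every control, while PLATE 5 lay inside the control range and level with acellular 6. The log2 fold change of PLATE against control was 0.98 ± 0.31 (SE; edgeR unadjusted p = 0.00689, adjusted p = 0.998, n = 4 against 6), and 0.55 without PLATE 1. Against acellular it was 1.104 ± 0.389 (edgeR unadjusted p = 0.0123, adjusted p = 0.875, n = 4 against 3), and 0.67 without PLATE 1.

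Asporin has a run of aspartates in place of the sugar chain and binds transforming growth factor beta. ASPN ranged from 19.5 to 153 CPM in control, with a median of 50.2 CPM, and was at 80.6, 112.1 and 56.8 CPM in sham. In the acellular libraries it was at 54.7, 38.2 and 15.3 CPM. In PLATE 5, 9 and 13 it was at 60.7, 57.7 and 53.8 CPM, and in PLATE 1 at 1047 CPM. Those 3 PLATE libraries lay within the control range, and PLATE 1 was 68.3 times as high as the lowest library of all, acellular 10. The log2 fold change of PLATE was 2.21 ± 0.83 against control (edgeR unadjusted p = 0.0181, adjusted p = 0.998) and 3.08 ± 1.12 against acellular (edgeR unadjusted p = 0.0146, adjusted p = 0.875). Without PLATE 1 these values were -0.20 and 0.67, and that against sham turned from 1.87 to -0.54. With limma voom and quality weights the values against control, acellular and sham were 0.42, 0.97 and -0.47.

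Lumican (LUM), fibromodulin (FMOD), PRELP and osteomodulin (OMD) form class II, whose core proteins can carry keratan sulfate. Lumican spaces collagen fibrils and is best known from the transparent cornea. LUM stood at 2253, 2351, 1841, 1513, 1103 and 1622 CPM in the controls and at 3421, 4004 and 3094 CPM in sham. In acellular 6, 8 and 10 it was at 1057, 2475 and 1211 CPM, and in PLATE 1, 5, 9 and 13 at 5022, 1660.2, 2440.4 and 3149 CPM. Every sham library lay above every control and every acellular library. Acellular 6 was the lowest of all 16 and PLATE 1 the highest. The log2 fold change was 0.98 ± 0.35 for sham against control (edgeR unadjusted p = 0.0131, adjusted p = 0.963) and -1.15 ± 0.42 for acellular against sham (edgeR unadjusted p = 0.015, adjusted p = 0.902).

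LUM was also higher in PLATE, by 0.78 ± 0.32 against control (edgeR unadjusted p = 0.028, adjusted p = 0.998) and by 0.96 ± 0.40 against acellular (edgeR unadjusted p = 0.0289, adjusted p = 0.875). Without PLATE 1 these differences were 0.44 and 0.61, and without acellular 8 the second was 1.44. With limma voom and quality weights the second was 0.34. PLATE and sham overlapped in LUM, with a difference of -0.19 and a 95% interval of -1.01 to 0.63.

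Fibromodulin binds collagen at its crosslinking sites. FMOD stood at 4.66, 5.31 and 4.16 CPM in sham against 2.33, 2.42 and 1.23 CPM in acellular and 1.42, 1.92, 2.41 and 2.76 CPM in PLATE 1, 5, 9 and 13. Controls spanned both ranges, from 1.00 CPM in control 9 to 4.84 CPM in control 24. Both graft groups lay wholly below sham, by -1.24 ± 0.50 for acellular (edgeR unadjusted p = 0.0254, adjusted p = 0.902) and -1.14 ± 0.46 for PLATE (edgeR unadjusted p = 0.0245, adjusted p = 0.657). These are differences of levels of a gene with as few as 22 counts in a library.

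PRELP, which binds heparan sulfate and collagen near basement membranes, lay in a narrow band in sham (122, 119 and 139 CPM) and below it in acellular (67.7, 89.6 and 81.4 CPM). Controls ran from 51.5 to 179 CPM, with a median of 93.8 CPM, and PLATE libraries from 42.6 CPM in PLATE 1 to 140.4 CPM in PLATE 9. The acellular difference from sham was -0.67 with a 95% interval of -1.67 to 0.32. Osteomodulin is best known from mineralised tissue. OMD was at 12.3, 6.32 and 3.16 CPM in acellular 6, 8 and 10 and at 2.09 to 3.43 CPM in PLATE, which overlapped through acellular 10. Control 29 reached 12.1 CPM against 1.66 to 4.00 CPM in the other 5. PLATE differed from acellular by -1.34 in OMD, with an interval of -2.78 to 0.09, and by -0.72 without acellular 6.

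Osteoglycin (OGN), also called mimecan, belongs to class III and takes part in collagen fibril assembly. OGN stood at 1498, 913, 1022, 483, 618 and 1112 CPM in the controls and at 1683, 2242 and 2424 CPM in sham. In acellular 6, 8 and 10 it was at 2119.6, 1882 and 1013 CPM, and in PLATE 1, 5, 9 and 13 at 429, 991, 1718 and 1991 CPM. Every sham library was above every control, as were acellular 6, acellular 8, PLATE 9 and PLATE 13. PLATE 1 was the lowest of all 16 libraries. Sham differed from control by 1.17 ± 0.42 (edgeR unadjusted p = 0.0132, adjusted p = 0.963). The mean of the 3 operated groups differed from control by 0.82 ± 0.32 (edgeR unadjusted p = 0.0239, adjusted p = 0.9995), the only member with an unadjusted p under 0.05 there, where 0.877% of all genes were as far and higher. For acellular against control the difference was 0.83 with an interval of -0.07 to 1.72.

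Podocan (PODN), of class V, is known to restrain smooth muscle cell growth. PODN stood at 239.7, 361 and 337 CPM in sham, at 190.5, 294 and 171 CPM in acellular and at 88.4, 143, 286 and 213 CPM in PLATE 1, 5, 9 and 13. In control it ran from 30.7 CPM in control 25 to 341 CPM in control 29, a span of 11.1 times that covered every other library but sham 12. Sham differed from control by 1.04, with an interval of -0.04 to 2.11.

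Dermatopontin (DPT) is not a proteoglycan but promotes collagen fibril formation together with decorin. DPT stood at 449, 532 and 427 CPM in sham. Controls were at 282, 124, 219.8, 103.98, 113.3 and 420.4 CPM, acellular 6, 8 and 10 at 238, 350 and 98.6 CPM, and PLATE 1, 5, 9 and 13 at 209.6, 210.5, 215 and 387 CPM. Each sham library was above all 13 others, though sham 14 exceeded control 29 by little. The log2 fold change of sham against control was 1.16 ± 0.43 (edgeR unadjusted p = 0.0172, adjusted p = 0.963). Acellular and PLATE lay below sham by -1.04 (95% interval -2.15 to 0.07) and -0.88 (95% interval -1.90 to 0.14).

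**Figure D2:**
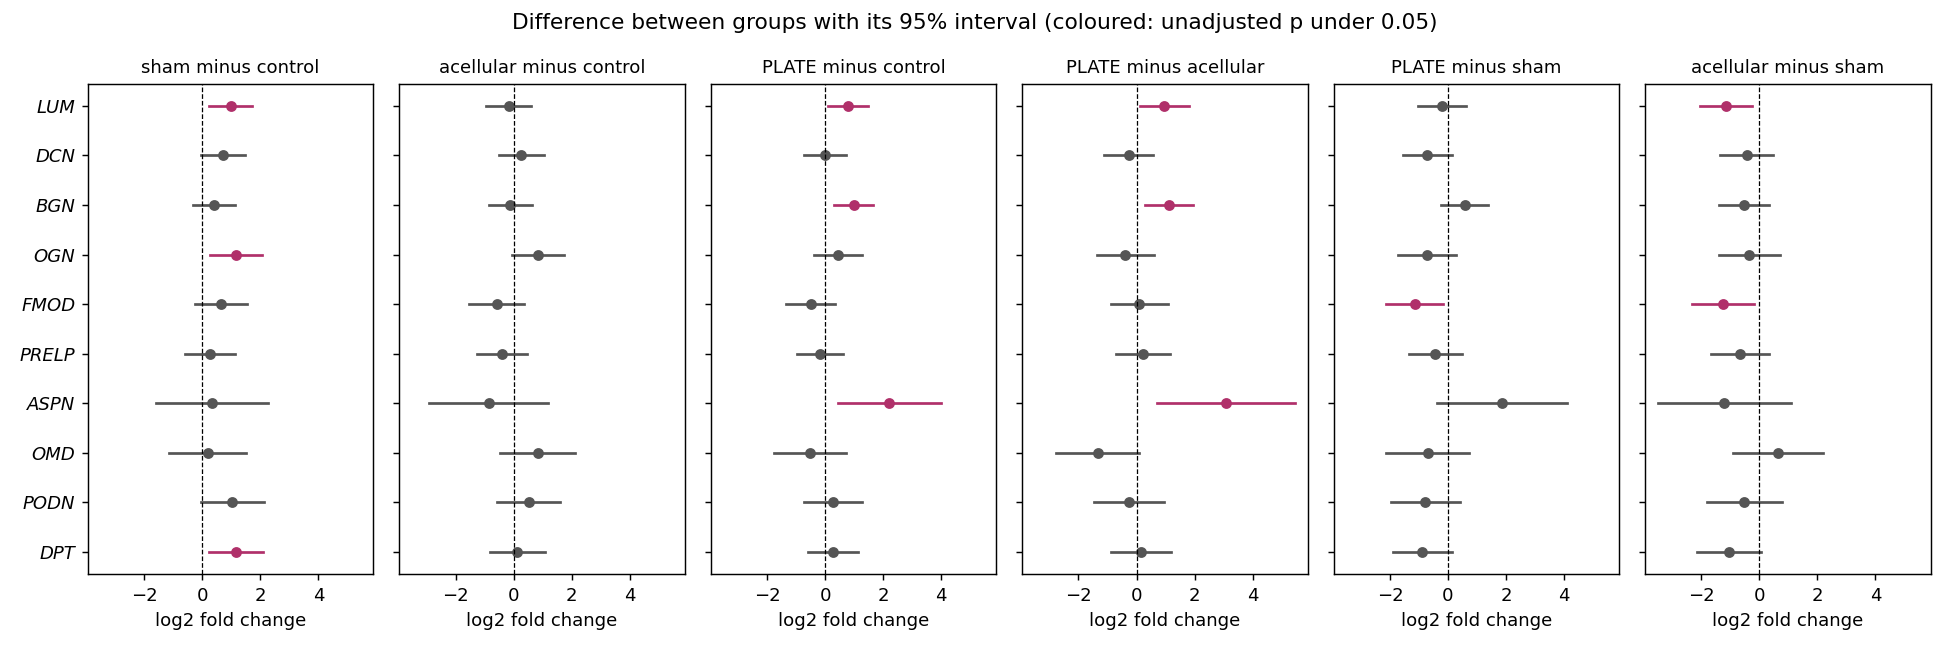
Log2 fold change of each member (point) with its 95% interval (line) in the 6 comparisons between pairs of groups, with members at an unadjusted p under 0.05 in colour. All 10 points lie above 0 for sham minus control, 9 of 10 lie below 0 for acellular minus sham, and the ASPN intervals are the widest.

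Across the members, sham against control was the comparison in which the estimates went 1 way. All 10 estimates were above 0, from 0.19 to 1.17 with 0.68 as their median, while the median over all genes tested was -0.06 and 42.1% of them were higher. LUM, OGN and DPT had an unadjusted p under 0.05, 3 of 10 where 1.22% of all genes did so in this direction. Without sham 12 this held for OGN alone, and without control 29 for 5 members. The same 3 genes had sham libraries wholly above control, where this held for 1.9% of all genes. Without control 2 and PLATE 1 the median was 0.74 and all 10 were again higher. Of the libraries left out in turn, sham 14 was the only one to change this count, to 9, with OMD at -0.43.

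Of the cell type marker lists, only that of neutrophils did not overlap between sham and control. The fibroblast sums overlapped. The fibroblast list (8 of 10 markers in the table, collagens among them) summed to 23602, 7149 and 7041 CPM in sham 11, 12 and 14 against 4152 to 22862 CPM in control. COL1A1 (672 to 6570 CPM over all libraries) and COL1A2 (2394 to 15841 CPM) dominate this sum here and below. Each other marker of the list was at most 503 CPM. Sham 11, with the highest sum, had more BGN than sham 12 and 14 and less DCN, OGN and PODN. Neutrophil markers (5 of 5 in the table) were lower in every sham library, at 4.57 to 40.0 CPM against 99.6 to 552 CPM in control. The part of these cells in the difference was not tested.

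Acellular against control gave no such pattern. Of the members 5 were higher and 5 lower, with a median of 0.00, and 0 had an unadjusted p under 0.05, where 6% of all genes did. This count depended on the libraries and the test. With edgeR, OGN had an unadjusted p under 0.05 without control 2, without control 2 and PLATE 1, and without acellular 10. The same held for OGN in the compared groups alone, with DESeq2 and with limma voom, and for OMD without control 29. Each was higher in acellular. No member's groups lay apart, which held for 1.73% of all genes. OMD (0.83), OGN (0.83), PODN (0.52), DCN (0.26) and DPT (0.12) had positive estimates, and ASPN (-0.87), FMOD (-0.59), PRELP (-0.40), LUM (-0.17) and BGN (-0.12) negative ones. That of OMD was 0.21 without acellular 6 and 1.55 without control 29.

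Acellular against sham put 9 of 10 members lower, with a median of -0.60 against 0.02 over all genes tested. In LUM, BGN, FMOD, PRELP, ASPN and DPT every acellular library lay below every sham library, 6 of 10 where 10.5% of all genes did so. LUM and FMOD had an unadjusted p under 0.05, 2 of 10 where 3.11% of all genes did so and were lower. Without acellular 10 neither did, without acellular 6 only FMOD, and without sham 11 or sham 12 only LUM. OMD was the exception, at 0.64 with an interval of -0.89 to 2.18, and at 0.0242 without acellular 6 and 1.26 without sham 14. Besides fibroblasts, only marker lists whose groups did not overlap are named here. Summed smooth muscle markers (7 of 9 in the table) were 13590 to 18610 CPM in acellular and 37933 to 64115 CPM in sham. Summed fibroblast markers overlapped, at 4152 to 8039 against 7041 to 23602 CPM. Schwann cell markers (7 of 7 in the table) were at 40.6 to 106.1 CPM in acellular and 117.6 to 218.8 CPM in sham, and adipocyte markers (3 of 5, with LEP at 0 throughout) at 47.0 to 143.9 against 154.8 to 189.3 CPM. The adipocyte sum is nearly all ADIPOQ, since CIDEC was at most 3.72 CPM in any library. The part of these cells in the difference was not tested.

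PLATE against control put 6 of 10 members higher, with a median of 0.27. LUM, BGN and ASPN had an unadjusted p under 0.05, 3 of 10 where 3.3% of all genes did so and were higher, but no member's groups lay apart (0.119% of all genes). Without PLATE 1 no member had an unadjusted p under 0.05, and 7 were higher with a median of 0.23. Without control 2 and PLATE 1, OGN alone had one, and 8 were higher with a median of 0.35. PLATE against acellular gave the same 3 genes, 3 of 10 where 3.61% of all genes were as far and higher. These 2 comparisons share the PLATE libraries. Again no member's groups lay apart, which held for 4.97% of all genes. The median was 0.13. Without PLATE 1 no member had an unadjusted p under 0.05, and the median was 0.24. Without acellular 10 only BGN had one among the 3, and without acellular 6 only BGN and ASPN. Marker lists that overlapped between PLATE and acellular, such as Schwann cells (37.6 to 81.8 against 40.6 to 106.1 CPM), are otherwise left out here. Summed fibroblast markers were 11170 to 21244 CPM in PLATE against 4152 to 8039 CPM in acellular, and smooth muscle markers 29606 to 48563 against 13590 to 18610 CPM. Cartilage and bone markers (7 of 7 in the table) were at 260.4 to 907 against 68.0 to 224 CPM. That sum is mainly COL2A1, which ran from 58.9 to 678 CPM over all libraries. IBSP reached 226 CPM in PLATE 1, and every other marker of this list was at most 10.2 CPM. The part of these cells in the difference was not tested.

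PLATE against sham put 8 of 10 members lower, with a median of -0.70 against 0.03 over all genes tested. FMOD and DPT lay wholly below sham, 2 of 10 where 6.95% of all genes did so. FMOD alone had an unadjusted p under 0.05, where 1.65% of all genes did so and were lower. It had none without PLATE 1, PLATE 5 or sham 12. The members with positive estimates were BGN (0.58) and ASPN (1.87), and without PLATE 1 these were 0.15 and -0.54, so that 1 of 10 was higher. Several marker sums overlapped between PLATE and sham. Smooth muscle ran at 29606 to 48563 against 37933 to 64115 CPM, and macrophages at 202 to 1225 against 157 to 214 CPM. The lists named next are those that did not overlap, which held for 14.9% of all genes taken singly. Schwann cell markers were at 37.6 to 81.8 CPM in PLATE against 117.6 to 218.8 CPM in sham. B and plasma cell markers (6 of 7 in the table) were at 3828 to 36512 against 1749 to 2470 CPM, neutrophil markers at 57.8 to 6741 against 4.57 to 40.0 CPM, T and NK cell markers (3 of 7) at 12.4 to 33.2 against 7.23 to 7.78 CPM, and endothelial markers (6 of 7) at 618 to 1141 against 576 to 597 CPM. The part of these cells in the difference was not tested. Sham against control, acellular against sham and PLATE against sham all share the sham libraries, so their patterns are not separate observations.

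**Figure D3:**
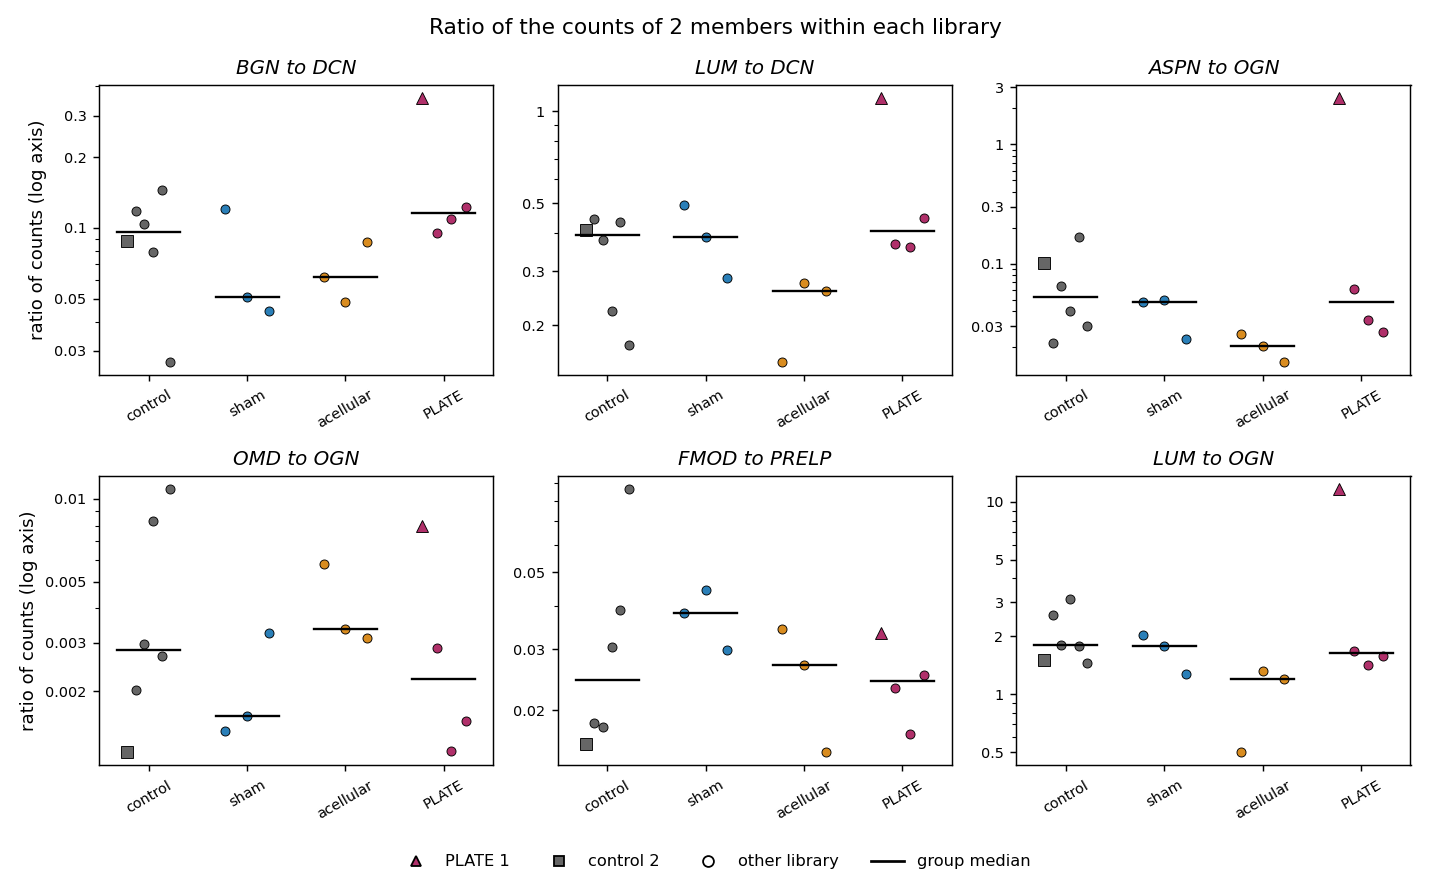
Ratio of the counts of 2 members within each library, on a log axis, by group, with the group median as a line. PLATE 1 has the highest ratio of BGN to DCN, LUM to DCN, ASPN to OGN and LUM to OGN, and the 3 acellular libraries lie below every control and PLATE library in LUM to OGN.

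Ratios of 2 members within a library do not depend on how libraries are scaled, and are given as values without a test. BGN to DCN was at 0.356 in PLATE 1 and at 0.0947 to 0.123 in PLATE 5, 9 and 13. In the other libraries it ran from 0.027 in control 29 to 0.145 in control 25, with 0.0486 to 0.0872 in acellular and 0.0442, 0.0508 and 0.120 in sham 14, 12 and 11. All 4 PLATE libraries therefore had more BGN for their DCN than all 3 acellular libraries, by little at the nearest (0.0947 against 0.0872). Of the other ratios, LUM to DCN, ASPN to OGN and LUM to OGN also lay apart between PLATE and acellular, while OMD to OGN and FMOD to PRELP overlapped. How many other pairs of genes lie apart in this way was not worked out. The control range held all acellular libraries and PLATE 5, 9 and 13 but not PLATE 1. That of sham held all acellular libraries and PLATE 5 and 9 but not PLATE 13 or PLATE 1.

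The table of RefSeq genes for the rabbit assembly mOryCun1.1 places several members next to each other, and all 10 were matched there by symbol. LUM and DCN are neighbours on chromosome 11 beside KERA. ASPN, OMD and OGN follow each other on chromosome 1 after ECM2, and FMOD and PRELP are neighbours on chromosome 13 before OPTC. BGN is on chromosome X, and PODN and DPT are both on chromosome 7 without another member beside them. Neighbours did not keep a fixed ratio. LUM to DCN ran from 0.152 in acellular 6 to 1.105 in PLATE 1, with 0.152, 0.275 and 0.259 in the acellular libraries, 0.172 to 0.443 in control, 0.286 to 0.494 in sham and 0.359 to 0.447 in PLATE 5, 9 and 13.

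Among the genes of chromosome 1 the ratio of ASPN to OGN was 2.44 in PLATE 1, where ASPN was the highest and OGN the lowest of all libraries. In the other 15 it was between 0.0151 and 0.166. OMD to OGN ran from 0.0012 to 0.0109, and FMOD to PRELP from 0.0152 to 0.0869 (control 29). The ratio of LUM to OGN, chosen after its values were seen, was 0.498, 1.32 and 1.20 in acellular 6, 8 and 10. It was 1.46 to 3.14 in control, 1.28 to 2.03 in sham and 1.42 to 1.67 in PLATE 5, 9 and 13, and 11.7 in PLATE 1. Acellular libraries thus held less LUM for their OGN than every control and PLATE library.

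**Figure D4:**
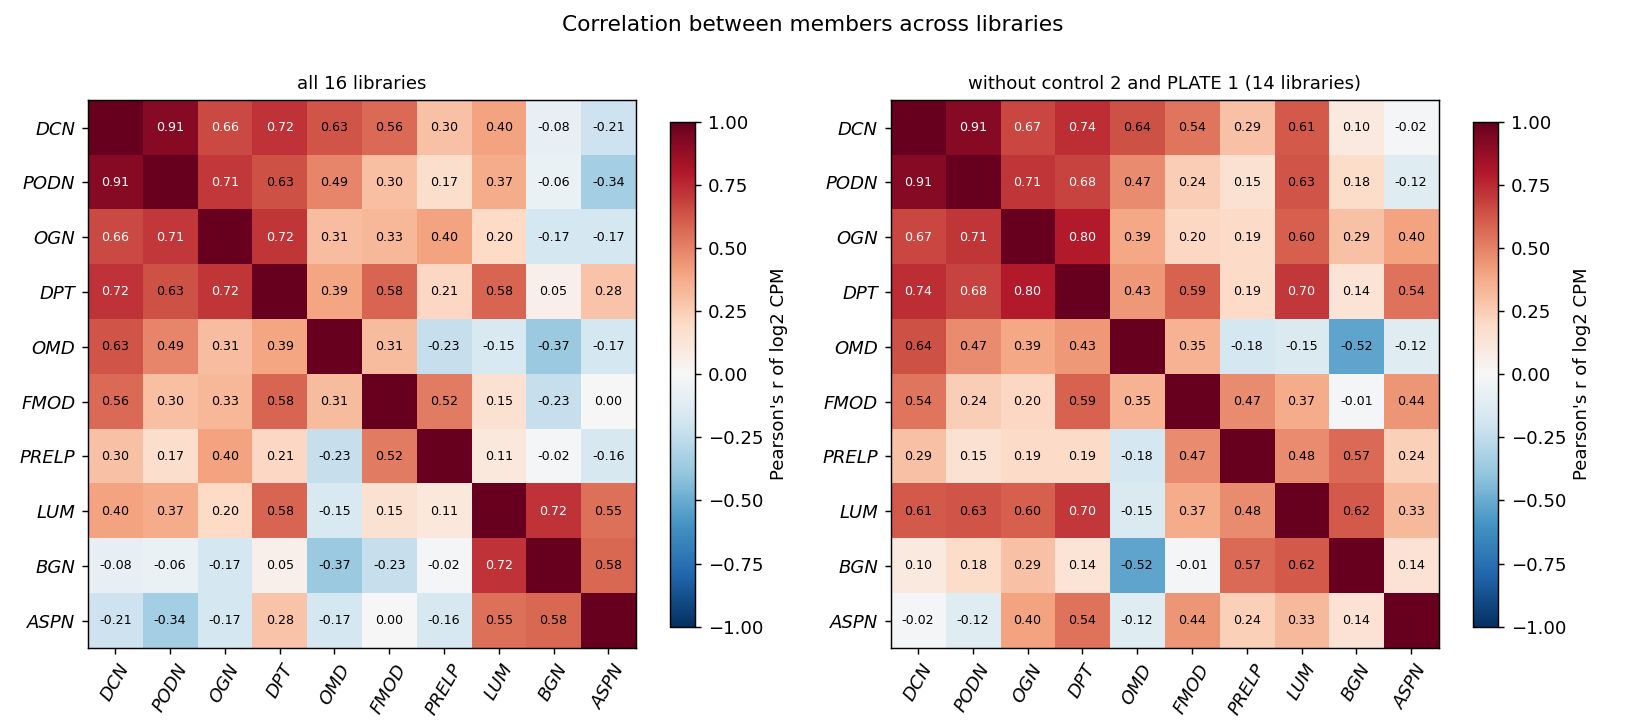
Pearson's r of log2 CPM between pairs of members, over all 16 libraries (left) and without control 2 and PLATE 1 (right). DCN and PODN are at 0.91 in both, and BGN and ASPN lie between -0.34 and 0.18 with DCN and PODN.

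The members did not vary as 1 block across libraries. Over the 45 pairs the median Pearson's r of log2 CPM was 0.30 in all 16 libraries (median Spearman's rho 0.29), and 14 pairs were above 0.5. These are descriptions, since all points share the same libraries and scaling. DCN and PODN, on different chromosomes, had the highest r (0.91, rho 0.87), and it was 0.91 without control 2 and PLATE 1, 0.93 within the 6 controls and 0.89 with group means removed. LUM and BGN followed at 0.72 (rho 0.73), and were at 0.62 without the same 2 libraries. DCN and DPT (0.72, rho 0.80), OGN and DPT (0.72, rho 0.79) and OGN and PODN (0.71, rho 0.73) came next.

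BGN and OMD had the lowest r, at -0.37, and -0.52 without control 2 and PLATE 1. ASPN and BGN were at 0.58 with PLATE 1 and at 0.11 without it. Of the neighbours, LUM and DCN were at 0.40 and FMOD and PRELP at 0.52, OMD and OGN at 0.31 and ASPN and OMD at -0.17. Without PLATE 1 these pairs were at 0.60, 0.44, 0.35 and -0.24. Spread within a group was wide: in control the SD of log2 CPM had a median of 0.79 over the members, against 0.44 over all genes tested, and ran from 0.40 for LUM to 1.25 for ASPN. In sham the same median was 0.30 against 0.19 over all genes.

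The 5 genes outside the list whose log2 CPM followed the mean of the standardised members most closely over the 16 libraries were HOXA5 (r = 0.82, rho = 0.77), FOXP1 (r = 0.81, rho = 0.74), GOLIM4 (r = 0.81, rho = 0.82), CCNT2 (r = 0.80, rho = 0.73) and TSC22D2 (r = 0.80, rho = 0.72). Taken 1 by 1, the members had different closest genes. For PODN it was NR3C1, the glucocorticoid receptor (r = 0.95, rho = 0.88), for DCN the scavenger receptor COLEC12 (0.89, rho = 0.84) and for OGN the activin receptor ACVR2A (0.91, rho = 0.89). PRELP was closest to MYOCD, a coactivator of smooth muscle genes (0.91, rho = 0.87), and FMOD to SOX10, the transcription factor of Schwann cells (0.88, rho = 0.87). LUM was closest to USP36 (0.86), BGN to BST1 (0.88), OMD to MMP11 (0.85) and DPT to GOLIM4 (0.85). ASPN was closest to ADAMTS7 (0.92), which was at 0.75 without control 2 and PLATE 1. Each is the highest of 10932 genes and so is high in part by selection.

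The pathway around these proteins was described through 8 lists, as counts and medians of log2 fold changes, whose median over all genes tested was -0.06 to 0.03. Other genes of the family were scarce, apart from ECM2. KERA (keratocan) had 2 to 34 counts a library and EPYC (epiphycan) 1 to 405, OPTC had at most 9 and NYX at most 5, and the latter 2 did not pass the filter. ECM2, the neighbour of ASPN, had 609 to 2992 counts. Against control ECM2 was at 0.82 ± 0.30 in sham and at 0.80 ± 0.28 in PLATE, the latter 0.64 without PLATE 1. It was at 122 CPM in PLATE 1, where ASPN was at 1047 CPM, and at 62.1 to 98.4 CPM in PLATE 5, 9 and 13. Sham 14 reached 123 CPM. In PLATE against acellular KERA was at 1.58 ± 0.76 and CHADL (chondroadherin-like) at 1.22 ± 0.61, and in acellular against sham CHADL was at -1.17 ± 0.64 and EPYC at -2.64 ± 1.46. With 1 library left out of PLATE against acellular, KERA was at 1.19 without PLATE 1 and 2.19 without acellular 10. CHADL, with 4 to 14 counts in acellular, was at 0.97 without acellular 8 and 1.55 without acellular 6. In acellular against sham CHADL was at -1.50 without acellular 6 and -0.78 without sham 14. EPYC was at -3.88 without acellular 8 and -2.04 without sham 12 there. EPYC was at 3.87, 19.4 and 11.4 CPM in sham 11, 12 and 14, while 5 of 6 controls were at most 2.78 CPM and control 24 was at 11.1 CPM.

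Enzymes that build the chondroitin and dermatan sulfate chains (18 of 22 listed genes tested) differed little. Medians ran from -0.21 for acellular against sham to 0.17 for PLATE against acellular, and XYLT2, which starts the chain, was lowest in p for the former at -0.50 ± 0.21. FAM20B, a xylose kinase of the linker, was at -0.37 ± 0.20 there. For PLATE against acellular CSGALNACT2 was at 0.56 ± 0.34 and CHST3 at 0.72 ± 0.46, and without PLATE 1 at -0.0235 and 0.45. Keratan sulfate enzymes (8 of 12 tested) had medians of -0.24 to 0.35, with the sulfotransferase CHST2 at 0.50 ± 0.22 and ST3GAL2 at 0.39 ± 0.23 in PLATE against acellular. Without PLATE 1 CHST2 was at 0.35 and ST3GAL2 at 0.23 there. CHST2 was highest in control, with means of 31.5 CPM in control, 17.8 in sham, 20.2 in acellular and 28.5 in PLATE. Sham differed from control by -0.82 ± 0.21 in CHST2. In acellular against sham CHST1 was at -0.74 ± 0.55 and ST3GAL2 at -0.29 ± 0.24.

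Of the 7 genes of sulfate and sugar supply, UXS1, which makes UDP-xylose, was lower in acellular than in sham by -0.54 ± 0.18 and higher in PLATE than in acellular by 0.45 ± 0.17. It averaged 16.8 ± 1.15 CPM in acellular, 24.4 ± 1.08 CPM in sham and 23.0 ± 5.18 CPM in PLATE. The sulfate transporter SLC26A2 was at 0.55 ± 0.40 in acellular against sham and -0.42 ± 0.37 in PLATE against acellular.

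**Figure D5:**
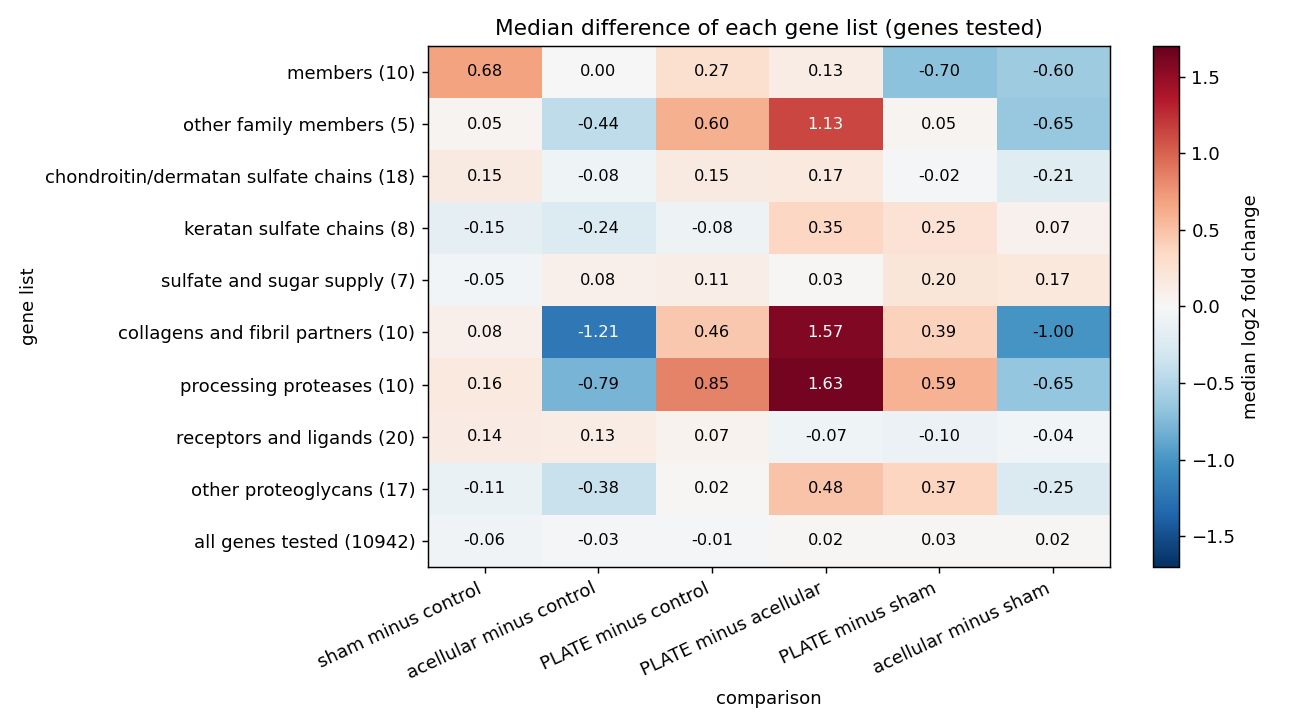
Median log2 fold change of the members, of 8 related gene lists and of all genes tested, in the 6 comparisons between pairs of groups, with the number of genes tested in brackets. In acellular minus control the collagens and their fibril partners are at -1.21 while the members are at 0.00.

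Collagens and other fibril partners (10 of 17 listed genes tested) are set beside the members here without a test of the difference. In sham against control 8 of 10 were higher, but 3 of 10 without sham 11, with a median of -0.36. Their median was 0.08 for sham against control, where the members were at 0.68, and -1.21 for acellular against control, where the members were at 0.00. Without control 2 and PLATE 1 these 2 list values were 0.19 and -0.95. In acellular against sham 9 of 10 were lower with a median of -0.9997, among them COL3A1 at 3573 ± 900 CPM against 11144 ± 8356 CPM (-1.64 ± 0.66) and COL5A2 at 208 ± 10.8 against 475 ± 188 CPM (-1.20 ± 0.52). Without sham 11 these were -0.81 and -0.82. In PLATE against acellular 9 of 10 were higher with a median of 1.57, and 1.05 without PLATE 1. COL5A2 was at 1.62 ± 0.50 and COL5A3 at 3.80 ± 1.25 there, and at 1.04 and 1.06 without PLATE 1. COL14A1, a collagen on fibril surfaces, was at 1.07 ± 0.41 in sham against control.

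Proteases that process or cleave these proteins (10 of 13 tested) had a median of 1.63 in PLATE against acellular, and 0.61 without PLATE 1. BMP1, which removes the propeptide of biglycan and of procollagen, averaged 142 ± 154 CPM in PLATE and 38.6 ± 2.66 CPM in acellular (1.88 ± 0.56, and 0.75 without PLATE 1). MMP3, a stromelysin, had 1 count over the 3 acellular libraries and 1 to 4472 counts in the PLATE libraries. Its PLATE mean was 72.6 ± 144 CPM, and its log2 fold change against acellular was 11.6, and 3.83 without PLATE 1. In acellular against sham PCOLCE, an enhancer of BMP1, was at -1.31 ± 0.54 (-0.87 without sham 11) and BMP1 at -0.88 ± 0.57.

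Receptors and ligands of the family (20 of 23 tested) had medians of -0.10 to 0.14 in the 6 comparisons between pairs of groups. TLR2, a receptor for released biglycan, averaged 114.9 ± 68.8 CPM in acellular against 45.0 ± 12.3 CPM in sham (1.35 ± 0.65, and 0.77 without acellular 10). CD44 was at -0.44 ± 0.30 in that comparison and at 0.66 ± 0.29 in PLATE against acellular, where CCN4, a matricellular protein, was at 2.58 ± 1.01. Without PLATE 1 these were 0.32 and 0.92, and CCN4 was at 3.28 without acellular 6. Among other proteoglycans (17 of 25 tested) the median was 0.48 in PLATE against acellular, and 0.21 without PLATE 1. BCAN (brevican, 4 to 134 counts in PLATE and 3 to 19 in acellular) was at 3.21 ± 1.07 and SRGN (serglycin, a proteoglycan of blood cell granules) at 2.53 ± 1.02. Without PLATE 1 BCAN was at 2.79 and SRGN at -0.00966, and without acellular 10 SRGN was at 3.19. In acellular against sham HAPLN1, a hyaluronan link protein, was at 2.05 ± 0.71 and HSPG2 (perlecan, of basement membranes) at -1.45 ± 0.57. No gene of the 8 lists passed an adjusted p of 0.05 in these comparisons (edgeR, adjusted p of 0.8745 or more for the genes named).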

How the data were processed

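Per the labels' protocols, the authors extracted RNA from frozen tissue and sequenced poly(A) libraries (TruSeq Stranded mRNA) on an Illumina system. Per the submitters' processing notes, FastQC, HISAT2 2.2.1 and featureCounts were used, while build, annotation, strand setting and the handling of reads shared by similar genes are not given in the sources used here. The authors deposited raw read counts per gene symbol. A line pooling genes without a symbol (22.9 to 28.5% of counts) was left out. The index that ends each sample's description gave its column.

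Counts were scaled by TMM, filtered with filterByExpr (minimum count 10) and fitted with edgeR 4.0.16 in R 4.3.3, with a mean per group and 12 residual degrees of freedom. P-values (two-sided) were adjusted by Benjamini-Hochberg over 10942 genes with a threshold of 0.05. Log2 CPM used a prior count of 2. Standard errors are the size of the log2 fold change over the square root of its F statistic, and 95% intervals are symmetric t intervals on them. The fit was also run on simulated data for acellular against control, and its outcome is not reported here. Alternatives were DESeq2 1.42.0, limma 3.58.1 voom, other scalings, no filter, the compared groups alone, and libraries left out. For each related list, genes named are the 2 with the smallest p in acellular against sham and in PLATE against acellular, and for likeness the 5 genes closest to the mean of the members and the closest to each. Others (ECM2, EPYC, OPTC, NYX, COL14A1) were chosen after their values were seen. The members and lists were chosen with earlier results of these data known. Sequences were not used here.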

Additional observations from a re-analysis of the deposited data

Results flagged for a closer look

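In each group of 4 or more libraries, the highest and lowest value of every member and of 6 ratios was compared with its nearest neighbour (Dixon's test on the log2 scale, 32 groups of values). Chance marks about 1 in 20 such groups, and 4 were marked. ASPN in PLATE 1 was at 1047 CPM, against 53.8 to 60.7 CPM in the other PLATE libraries. DPT in PLATE 13 was at 387 CPM, against 209.6 to 215 CPM in the other 3. The ratio of LUM to OGN in PLATE 1 was 11.7, against 1.42 to 1.67 in the other 3. That ratio was chosen after its values were seen, so its mark is not to be set against the chance rate, and without it 3 were marked. The ratio of BGN to DCN in control 29 was 0.027, against 0.079 to 0.145 in the other 5 controls.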

How the results depend on the processing

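No member passed the threshold under any alternative run. The smallest adjusted p of a member was 0.0747 (FMOD, acellular against sham, limma voom). Over the whole table edgeR called 0 genes, with 326 to 821 at an unadjusted p under 0.05 in a comparison. DESeq2 called 20 for acellular against control, 1 for PLATE against acellular, 14 for PLATE against sham, 1 for acellular against sham and 1 for all operated groups against control, and voom called 72 for acellular against sham.

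Of 922 alternative values of the members' log2 fold changes, 892 kept their sign. With voom, LUM (0.20) and BGN (0.0398) in acellular against control, DCN (0.0949) and PRELP (0.19) in PLATE against control and ASPN (-0.47) in PLATE against sham changed sign. Without control 2 and PLATE 1 this held for DCN (0.0727) and PRELP (0.28) in PLATE against control and ASPN (-0.55) in PLATE against sham. The cause was not tested.

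Leaving out 1 library at a time gave ranges that cross 0 for the following. For sham against control it was OMD (-0.43 to 0.91). For acellular against control they were LUM (-0.65 to 0.0486) and DPT (-0.33 to 0.48). For PLATE against control they were DCN (-0.15 to 0.20), PRELP (-0.43 to 0.0744), ASPN (-0.20 to 2.64), OMD (-0.68 to 0.21) and PODN (-0.0365 to 0.68). For PLATE against acellular they were FMOD (-0.16 to 0.26), PRELP (-0.0256 to 0.48), PODN (-0.56 to 0.0171) and DPT (-0.20 to 0.60). For PLATE against sham they were LUM (-0.54 to 0.0121) and ASPN (-0.54 to 2.22). No paired analysis was possible because the groups compared share fewer than 2 animal numbers. FMOD and OMD rest on the fewest counts.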

Other observations

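IBSP, which encodes bone sialoprotein and was listed among markers of cartilage and bone, had 3501 counts (226 CPM) in PLATE 1, the library in which ASPN was at 1047 CPM. In the other 15 libraries IBSP had at most 38 counts. This was noticed after the values were seen.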
